A study of Mus musculus with 316 samples.

Results

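Single marrow haematopoietic stem cells (HSC) of the mouse were divided by whether they carried transcript of Hlf, and the rest of their transcriptome was compared. Of 95 deposited Eng_BM-HSC cells, which the labels describe as engrafted and derived from bone marrow, 76 had at least 1000 mouse genes at a TPM of 1 or more and were kept. TPM is a transcript abundance corrected for transcript length. Of the kept cells, 51 had Hlf at a TPM of 1 or more and are called Hlf-positive, and 25 were below 1 and are called Hlf-negative. The series holds 316 single-cell profiles in all, which also include 94 fetal liver HSC (FL_HSC), 49 engrafted HSC derived from embryonic stem cells (Eng_ES-HSC) and 78 embryonic stem cells (ESC). The labels give no strain, genotype, age, sort gate, donor or host for the marrow cells, and no animal or culture is named. All 76 cells therefore count as 1 sample. No test between the Hlf groups was possible, there is no replicate error, and every difference below describes these cells. Each share of cells is followed, where given, by its exact 95% binomial interval, which covers only the error of counting cells.

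Hlf encodes a transcription factor of the PAR bZIP family, together with Dbp and Tef, and its product binds DNA as a dimer through a basic leucine zipper. In the mouse it is known as a gene of HSC and their early progenitors that is lost as cells commit to a lineage, and cells without it are known to lose quiescence and to perform poorly in serial transplantation. HSC of adult marrow are known to divide rarely, and entry into the cell cycle brings on genes of DNA replication, many of which are targets of E2F factors.

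Hlf lies on the minus strand of chromosome 11, at chr11:90336536-90390895 in GRCm38. The promoter windows below come from the RefSeq table for GRCm38.p6 and run from 250 bases before to 50 bases after an annotated start. Hlf is shown as the gene that divides the cells. Mcm5, a subunit of the replicative helicase, and Uhrf1, which recognises hemimethylated DNA during replication, are shown because they are S phase genes that were lower in Hlf-positive cells and for which a window held an E2F motif. Capitals mark matches to TTTGGCGC, TTTCGCGC or TTTCCCGC on either strand. The Hlf window is chr11:90390868-90391167 on the minus strand, the Mcm5 window chr8:75109259-75109558 on the plus strand, and the Uhrf1 window, the second of 2 listed for that gene, chr17:56304063-56304362 on the plus strand.
Hlf promoter: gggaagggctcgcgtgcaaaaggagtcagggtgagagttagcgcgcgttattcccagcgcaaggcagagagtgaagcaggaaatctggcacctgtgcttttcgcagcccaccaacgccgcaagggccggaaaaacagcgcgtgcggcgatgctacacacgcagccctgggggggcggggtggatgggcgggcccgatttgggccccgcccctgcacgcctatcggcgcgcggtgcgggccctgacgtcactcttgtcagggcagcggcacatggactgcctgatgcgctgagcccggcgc
Mcm5 promoter: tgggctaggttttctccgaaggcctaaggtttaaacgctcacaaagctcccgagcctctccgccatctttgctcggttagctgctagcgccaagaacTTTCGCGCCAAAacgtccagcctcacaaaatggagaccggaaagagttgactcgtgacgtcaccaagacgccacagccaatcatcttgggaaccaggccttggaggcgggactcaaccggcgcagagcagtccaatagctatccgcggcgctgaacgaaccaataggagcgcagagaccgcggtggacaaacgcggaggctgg
Uhrf1 promoter: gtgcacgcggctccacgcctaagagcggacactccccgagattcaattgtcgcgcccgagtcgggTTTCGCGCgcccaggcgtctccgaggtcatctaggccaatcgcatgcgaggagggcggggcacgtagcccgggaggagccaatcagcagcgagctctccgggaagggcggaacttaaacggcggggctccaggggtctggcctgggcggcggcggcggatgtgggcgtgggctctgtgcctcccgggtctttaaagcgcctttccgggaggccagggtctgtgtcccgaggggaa
In the Mcm5 window TTTCGCGC at base 98 overlaps GCGCCAAA, the reverse complement of TTTGGCGC, at base 102. In the printed Uhrf1 window TTTCGCGC starts at base 66, and the first window of that gene held 0 matches. The Hlf window held none of these words. At least 1 of the 3 E2F words was found in the windows of 7 of the 17 S phase genes with a RefSeq window, against 2.12% of 27025 genes. Of the 5 S phase genes lower by at least 1 on the log2 scale, Mcm5 and Uhrf1 were among these 7, while Dut, Rrm1 and Rrm2 had windows without such a word. The words were also in 3 of 18 windows of HSC transcription factors, those of Lyl1, Gfi1b and Mycn, in 1 of 17 windows of G2 and M phase genes and in 0 of 16 windows of glycolytic genes. The PAR bZIP words TTACGTAA and TTATGTAA, searched on both strands, were in 0 of those 17 windows and in 1.23% of all genes. These matches describe the letters of the windows and nothing else was measured there.

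Among the Hlf-positive cells, Hlf ran from 1.04 to 2374 TPM with a median of 31.8 TPM, and in Hlf-negative cells it ran from 0 to 0.897 TPM with a median of 0. Of the 51 Hlf-positive cells, 13 lay below 10 TPM, 21 from 10 to under 100 TPM and 17 at 100 TPM or more. Of the 25 Hlf-negative cells, 19 were listed at 0. Just inside the threshold lay cells at 1.04 and 1.34 TPM, and just outside it cells at 0.897 and 0.827 TPM. These values chose the groups and are given as a description only. The share of kept marrow cells that were Hlf-positive was 67.1% (55.4% to 77.5%). The same threshold gave 69% (58.1% to 78.5%) in FL_HSC, 9.52% (1.17% to 30.4%) in Eng_ES-HSC and 5.19% (1.43% to 12.8%) in ESC, at medians of 2585 genes in Eng_BM-HSC, 4233 in FL_HSC, 1609 in Eng_ES-HSC and 5433 in ESC. Hlf reached 3.14 TPM in the highest Eng_ES-HSC cell and 6.93 TPM in the highest ESC.

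The number of genes detected had similar medians in the marrow groups. It had a median of 2568 in Hlf-positive cells, which ranged from 1043 to 3585, and of 2604 in Hlf-negative cells, which ranged from 1008 to 3602. Among cells with fewer than 2500 genes, 24 Hlf-positive and 10 Hlf-negative, the medians were further apart, at 2082.5 in Hlf-positive and 1721 in Hlf-negative cells. Among cells with 2500 or more, 27 Hlf-positive and 15 Hlf-negative, they were 2735 in Hlf-positive and 2988 in Hlf-negative cells. The median mitochondrial share of the TPM was 14.2% in Hlf-positive cells and 11.8% in Hlf-negative cells, and it was over 50% in 7 Hlf-positive and 3 Hlf-negative cells. Sequencing depth is unknown, because TPM values do not keep it. No pair of marrow cells had near-identical profiles. Values of each gene were fitted as log2(TPM + 1) on the Hlf group and on the log2 gene number of the cell, Hlf left out, and the fitted difference, Hlf-positive minus Hlf-negative, is the difference given throughout.

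**Figure D1:**
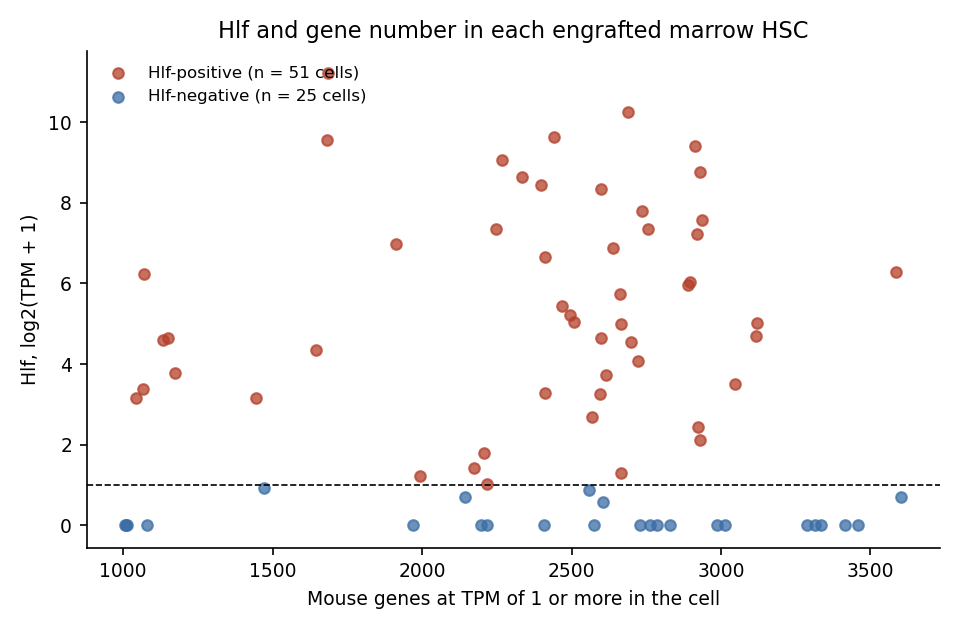
Hlf as log2(TPM + 1) against the number of mouse genes at a TPM of 1 or more, for 51 Hlf-positive (red) and 25 Hlf-negative (blue) marrow cells. The dashed line is the threshold of 1 TPM, and both groups spread over about the same range of gene numbers, 1043 to 3585 in Hlf-positive and 1008 to 3602 in Hlf-negative cells.

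Across 10111 genes, those averaging 1 TPM or more in either group, 214 (2.12%) were higher by at least 1 on the log2 scale in Hlf-positive cells and 499 (4.94%) were lower by at least 1. The median difference over all these genes was -0.03. With quantile normalization the counts were 309 higher and 331 lower, so the excess of lower genes depends on the scaling. In 25 pairs of cells matched on gene number the counts were 382 higher and 569 lower. In cells with fewer than 2500 genes the median over all genes was 0.13. Among genes averaging 10 TPM or more, 3.14% were higher and 7.45% lower by at least 1. Counts of list members past 1 below stand beside these shares. Counts of 1 or 2 members are too few to be set apart from them.

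Genes of stem cell identity leaned to the Hlf-positive side. Among 23 HSC transcription factors compared, the median difference was 0.24 against -0.03 over all genes, 16 were above 0, and 5 were higher by at least 1 while 0 were lower by that much. The 5 were Myb, Runx1, Etv6, Hhex and Foxo3. Myb, a regulator of HSC and progenitor proliferation, had a lowest, median and highest value of 0, 108 and 1848 TPM in Hlf-positive cells and of 0, 17.7 and 485 TPM in Hlf-negative cells. The groups overlapped, the highest cells were Hlf-positive, and the difference was 1.56. Runx1, which is needed for the first HSC to form in the embryo, reached 1750.1 TPM in Hlf-positive cells with a median of 2.13 TPM, against a highest value of 184 TPM and a median near 0 in Hlf-negative cells, a difference of 1.49. Etv6, an ETS-family repressor known to be needed for survival of adult HSC, was detected in 82.4% (69.1% to 91.6%) of Hlf-positive and 64% (42.5% to 82%) of Hlf-negative cells and differed by 1.40. Hhex, a homeobox factor, differed by 1.36, and Foxo3, a forkhead factor associated with HSC quiescence, by 1.10.

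Some factors most often used to define HSC differed by less than 1. Mecom, a zinc finger regulator of long-term HSC, was detected in 33.3% (20.8% to 47.9%) of Hlf-positive and 12% (2.55% to 31.2%) of Hlf-negative cells, with a difference of 0.84. Meis1, a homeobox partner of Hox proteins, differed by 0.85. Fli1, Lmo2 and Erg, members of the core blood stem cell network, differed by 0.43, 0.11 and 0.05. Fli1 and Lmo2 were found in most cells of either group, at 88.2% and 90.2% of Hlf-positive cells and 84% and 88% of Hlf-negative cells. Tal1, a helix-loop-helix factor of blood formation and also a marker on the erythroid list, was the member with the lowest value, at -0.90. Prdm16 was detected in 0 Hlf-positive cells and in 1 Hlf-negative cell. By the approximate rule of 3 over the 51 cells, and not the exact interval, 0 cells allow a share of up to 5.88%.

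The list of genes enriched in long-term HSC had 4 of 19 compared members higher by at least 1, 0 lower, and a median of 0.17. In all 14 were above 0 and 5 below 0, the lowest at -0.97. A median of 6 of the 25 listed genes was detected per cell in either group. Of these 25 genes, 6 were detected in no Hlf-positive cell at all and 9 in no Hlf-negative cell. Gimap6 and Gimap1, GTPases of the immunity-associated family, differed by 1.66 and 1.42. Gimap6 ran from 0 to 2779 TPM with a median of 14.3 TPM in Hlf-positive cells, and from 0 to 1822 TPM with a median of 2.04 TPM in Hlf-negative cells. It was detected in 88.2% (76.1% to 95.6%) of Hlf-positive and 64% (42.5% to 82%) of Hlf-negative cells. Ubl3, a membrane-anchored ubiquitin-like protein, was detected in 64.7% (50.1% to 77.6%) of Hlf-positive and 32% (14.9% to 53.5%) of Hlf-negative cells, with a difference of 1.40. Gstm1, a glutathione transferase, also differed by 1.40.

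Transcripts of surface proteins used to sort HSC did not separate the groups in the same way, and the proteins were not measured. None of the 23 compared members of the surface and niche receptor list differed by 1, and the list median was 0.11. Kit, the stem cell factor receptor, was detected in 66.7% of Hlf-positive and 60% of Hlf-negative cells, and Ly6a, which encodes Sca-1, in 60.8% of Hlf-positive and 56% of Hlf-negative cells. Procr, the endothelial protein C receptor, was detected in 17.6% of Hlf-positive and 12% of Hlf-negative cells. Its highest value was 4540 TPM in Hlf-positive and 6.14 TPM in Hlf-negative cells. Slamf1, which encodes CD150, had a lower value in the Hlf-positive group, at -0.97. It was detected in 1 Hlf-positive cell, at 1.41 TPM, and in 4 Hlf-negative cells, the highest at 545 TPM. Fgd5 and Cdh5, markers of HSC and of endothelium, were detected in no cell of either group. Adgrg1, an adhesion receptor, was found in 98% of Hlf-positive and 92% of Hlf-negative cells. Of the 26 listed surface genes, a median of 7 was detected per Hlf-positive cell and of 8 per Hlf-negative cell. The name HSC is that of the labels.

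Genes of DNA replication stood on the Hlf-negative side. Of 19 S phase genes compared, 16 were below 0, 5 were lower by at least 1 in Hlf-positive cells and 0 were higher by that much, with a median of -0.73. Dut, which removes dUTP from the nucleotide pool, had a lowest, median and highest value of 0, 0 and 568 TPM in Hlf-positive cells and of 0, 32.8 and 1011 TPM in Hlf-negative cells. The groups overlapped, and the share of cells with Dut was 45.1% (31.1% to 59.7%) in Hlf-positive and 72% (50.6% to 87.9%) in Hlf-negative cells, with a difference of -2.42. Rrm2 and Rrm1, the subunits of ribonucleotide reductase, differed by -1.89 and -1.58. Rrm2 was detected in 3 of 51 Hlf-positive and 8 of 25 Hlf-negative cells, and Rrm1 in 6 Hlf-positive and 10 Hlf-negative cells.

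Mcm5, whose promoter is printed above, reached 104 TPM in the highest Hlf-positive cell and 1505 TPM in the highest Hlf-negative cell, with medians of 0 TPM in Hlf-positive and 0.906 TPM in Hlf-negative cells and a difference of -1.68. Uhrf1 differed by -1.58 and was detected in 33.3% of Hlf-positive and 52% of Hlf-negative cells. The other Mcm subunits, Mcm2, Mcm3, Mcm4, Mcm6 and Mcm7, all had differences below 0, between -0.99 and -0.50. Pcna, the sliding clamp of the replication fork, differed by -0.98 but was found in 31.4% of Hlf-positive and 32% of Hlf-negative cells, so the difference lay in its level and not in how many cells had it. Tyms, the thymidylate synthase, went the other way at 0.68.

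Counted by cell, 17 of 51 Hlf-positive cells carried 5 or more of the 20 S phase genes (33.3%, 20.8% to 47.9%), against 15 of 25 Hlf-negative cells (60%, 38.7% to 78.9%). With 10 or more genes the counts were 5 Hlf-positive cells (9.80%, 3.26% to 21.4%) and 7 Hlf-negative cells (28%, 12.1% to 49.4%). Averaged over the list, the level per cell had a median of 0.73 and a highest value of 3.26 in Hlf-positive cells, and a median of 1.06 and a highest value of 5.59 in Hlf-negative cells. The bulk of both groups overlapped at low levels, and 5 Hlf-negative cells lay above the highest Hlf-positive cell. These counts and levels were not adjusted for gene number. The 5 cells had 2988 to 3459 genes, against a median of 2568 in Hlf-positive and 2604 in Hlf-negative cells. In the matched pairs the list median was -0.48. The 5 cells were paired there with Hlf-positive cells that had 54 to 536 fewer genes, against a median gap of 28. Gene number was therefore not evened out for these 5 cells. Leaving out the cells over 50% mitochondrial gave a list median of -0.81.

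**Figure D2:**
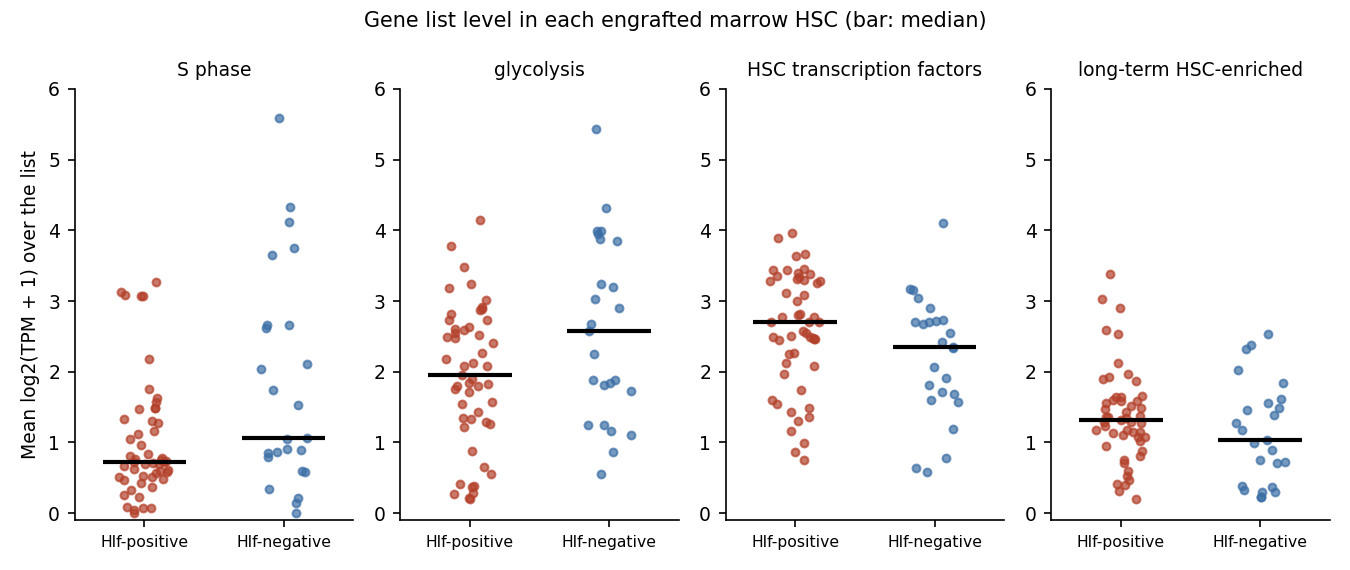
Mean log2(TPM + 1) over 4 gene lists in each marrow cell, with Hlf-positive cells (n = 51, red) left of Hlf-negative cells (n = 25, blue) and a bar at the median. The medians of Hlf-positive and Hlf-negative cells are 0.73 and 1.06 for S phase, 1.96 and 2.57 for glycolysis, and 2.70 and 2.34 for HSC transcription factors, with wide overlap in each list. These levels are not adjusted for gene number.

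Genes of G2 and M phase were scarce in both groups. Of 18 compared, 17 were below 0, with a median of -0.55. By at least 1, 2 were lower and 1 was higher, against 4.94% and 2.12% of all genes. Top2a, the topoisomerase that untangles chromosomes, was detected in 4 of 51 Hlf-positive and 8 of 25 Hlf-negative cells and differed by -1.42. Nusap1, a spindle protein, was detected in 2 Hlf-positive and 6 Hlf-negative cells and differed by -1.03. Mki67, the proliferation marker, was detected in 7.84% (2.18% to 18.9%) of Hlf-positive and 28% (12.1% to 49.4%) of Hlf-negative cells. Ube2c, the ubiquitin-conjugating enzyme of mitotic exit, was the exception, detected in 54.9% of Hlf-positive and 28% of Hlf-negative cells with a difference of 1.10. In cells with under 2500 genes the list median turned to 0.27. Among the cells with Mki67 below 1 TPM, 47 Hlf-positive and 18 Hlf-negative, the S phase median was -0.46 and the glycolysis median -0.58.

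Genes tied to the arrest of the cycle were divided. The list of CDK inhibitors and quiescence genes had a median of 0.20 over 19 genes. By at least 1, 2 were higher and 2 lower, against 2.12% and 4.94% of all genes. Btg1, an antiproliferative gene, differed by 1.59, and Foxo3, shared with the transcription factor list, by 1.10. Trp53, which encodes the p53 tumour suppressor, had a median of 1.45 TPM in Hlf-positive and 89 TPM in Hlf-negative cells and differed by -2.12. Tob1, another antiproliferative gene, differed by -1.17. The CDK inhibitors Cdkn1b and Cdkn1c, which encode p27 and p57, differed by -0.28 and -0.52.

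Glycolytic enzymes also stood on the Hlf-negative side. Of 16 compared, 11 were below 0, 6 were lower by at least 1 and 0 higher, with a median of -0.69. Pgam1, the phosphoglycerate mutase, was detected in 33.3% (20.8% to 47.9%) of Hlf-positive and 64% (42.5% to 82%) of Hlf-negative cells, and its difference was -2.18. Tpi1, the triose phosphate isomerase, differed by -1.78. Eno1, Pgk1, Ldha and Pkm, which act in the later steps, differed by -1.49, -1.44, -1.31 and -1.26. The level per cell ran from 0.20 to 4.14 in Hlf-positive and from 0.55 to 5.43 in Hlf-negative cells. The list median depended on gene number, at -0.05 in cells with fewer than 2500 genes, -0.65 in cells with 2500 or more and -0.32 in the matched pairs. Several of these enzymes have many processed pseudogenes, and how reads of shared sequence were assigned is not given in the sources used here.

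Nuclear genes of oxidative phosphorylation had a median of -0.32 over 22 genes, with 6 lower and 1 higher by at least 1. Ndufa4, a respiratory chain subunit, had medians of 140 TPM in Hlf-positive and 1029 TPM in Hlf-negative cells and differed by -1.88. Ndufb8, a complex I subunit, was the higher one, at 1.20. The list median turned to 0.78 in cells with fewer than 2500 genes. The 14 housekeeping genes had a median of -0.35, with 0 higher and 1, Pgk1, lower by at least 1. Actb, the beta actin gene, was found in every cell, with a median of 6457 TPM in Hlf-positive and 7700 TPM in Hlf-negative cells.

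Immediate early genes had the highest list median of the 25 lists, at 0.44 over 18 genes, with 15 above 0, 3 higher by at least 1 and 0 lower. These genes are known to respond within minutes to growth factors and also to handling of cells. Ier3, Myc and Klf6 differed by 1.12, 1.11 and 1.03. Klf6, a zinc finger factor, was detected in 82.4% (69.1% to 91.6%) of Hlf-positive and 48% (27.8% to 68.7%) of Hlf-negative cells. The part of cell handling in these values was not tested.

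Interferon response genes had a median of -0.06 over 20 genes. Higher by at least 1 were 3, Rtp4 (1.59), Ifi44 (1.51) and Ifit1 (1.29), against 2.12% of all genes, and 0 were lower. Ifit1, which binds viral RNA, was detected in 17 of 51 Hlf-positive and 2 of 25 Hlf-negative cells. One Hlf-positive cell listed Ifi44 at 326266 TPM, and the highest Hlf-negative cell was at 62 TPM. Class II antigen presentation genes were on in both groups. Their median over 8 genes was 0.11, and 1 was past 1 in each direction, H2-DMa at 1.17 and H2-Ab1 at -1.05. Over all genes 2.12% were higher and 4.94% lower by at least 1. H2-Aa was detected in 52.9% of Hlf-positive and 56% of Hlf-negative cells. Class I genes had a median of -0.17 over 12 genes, with 0 past 1 in either direction.

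Relatives of Hlf were detected in few cells. Tef was detected in 5 of 51 Hlf-positive and 3 of 25 Hlf-negative cells, with a difference of -0.24. Dbp was detected in 2 Hlf-positive and 0 Hlf-negative cells, and Nfil3, a repressor that binds the same DNA sites, in no cell of either group. The summed TPM of Tef, Dbp and Nfil3 reached 292 in the highest Hlf-positive cell and 615 in the highest Hlf-negative cell. The 14 compared genes of the circadian clock, in which PAR bZIP factors act as output regulators, had a median of -0.13. One of them, the kinase gene Csnk1d, was lower by at least 1, at -1.20.

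Lineage lists had medians from -0.26 for B cell genes to 0.13 for Hoxa and Hoxb genes. Some were as far from 0 as the medians of HSC transcription factors (0.24) and long-term HSC genes (0.17). Early lymphoid, erythroid and B cell medians were below 0 in all 16 alternatives of the closing section. The T and NK cell median was below 0 in 15 of 16. Notch, Hoxa and Hoxb, and monocyte and macrophage medians were above 0 in 15 of 16. Early lymphoid genes had a median of -0.19 over 11 genes with 0 past 1, and their highest member was Flt3, a receptor of lymphoid-primed progenitors, at 0.98. Notch pathway genes had a median of 0.10 over 12 genes, with 1, the Notch effector Rbpj, lower at -1.07. Notch2 was detected in 86.3% of Hlf-positive and 76% of Hlf-negative cells. The Hoxa and Hoxb genes had a median of 0.13 over 7 compared genes, with 0 past 1. Hoxa9, which promotes self-renewal of HSC, was detected in 37.3% of Hlf-positive and 24% of Hlf-negative cells.

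Lists of markers of mature blood cells had 1 member past 1 in all. The list medians were -0.01 for megakaryocyte and platelet, -0.17 for erythroid, -0.05 for granulocyte, 0.11 for monocyte and macrophage, -0.21 for T and NK cell and -0.26 for B cell genes. In cells with fewer than 2500 genes the last 3 were 0.64, -0.98 and -0.62, and among genes with a mean of 10 TPM or more the T and NK median was -0.69. The member past 1 was Mpo, the myeloperoxidase of granulocyte precursors, at -1.22. Its highest value was 26.6 TPM in Hlf-positive and 1608 TPM in Hlf-negative cells. The summed granulocyte TPM ran from 0 to 4638 in Hlf-positive and from 0 to 1677 in Hlf-negative cells, and the summed erythroid TPM from 6.10 to 5776 with a median of 1308 in Hlf-positive, and from 40.6 to 7895 with a median of 1268 in Hlf-negative cells. Every cell of either group had at least 1 erythroid list member. The summed T and NK TPM ran from 0 to 2469 in Hlf-positive and from 0 to 3632 in Hlf-negative cells, and the summed B cell TPM from 0 to 4388 in Hlf-positive and from 0 to 1204 in Hlf-negative cells. The summed monocyte and macrophage TPM reached 4801 in Hlf-positive and 2821 in Hlf-negative cells, and the summed megakaryocyte TPM 2996 in Hlf-positive and 1281 in Hlf-negative cells. The part of such transcripts in the differences above was not tested. Some markers were detected in no cell of either group, among them Elane and Ctsg of granulocytes, Gata1 and Klf1 of red cells, Cd3e of T cells, Cd79a of B cells, and Adgre1 of macrophages. Other members of these lists were detected in both groups, among them S100a8, S100a9, Camp and Ngp of granulocytes, Cd79b and Ebf1 of B cells, and Lyz2 of macrophages. Of the 16 granulocyte genes, 7 were detected in no Hlf-positive cell and 8 in no Hlf-negative cell. Of the 14 markers of non-blood marrow cells only Pdgfrb and Emcn could be compared, with a median of -0.23, and Col1a1 and Cxcl12 were detected in no cell.

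**Figure D3:**
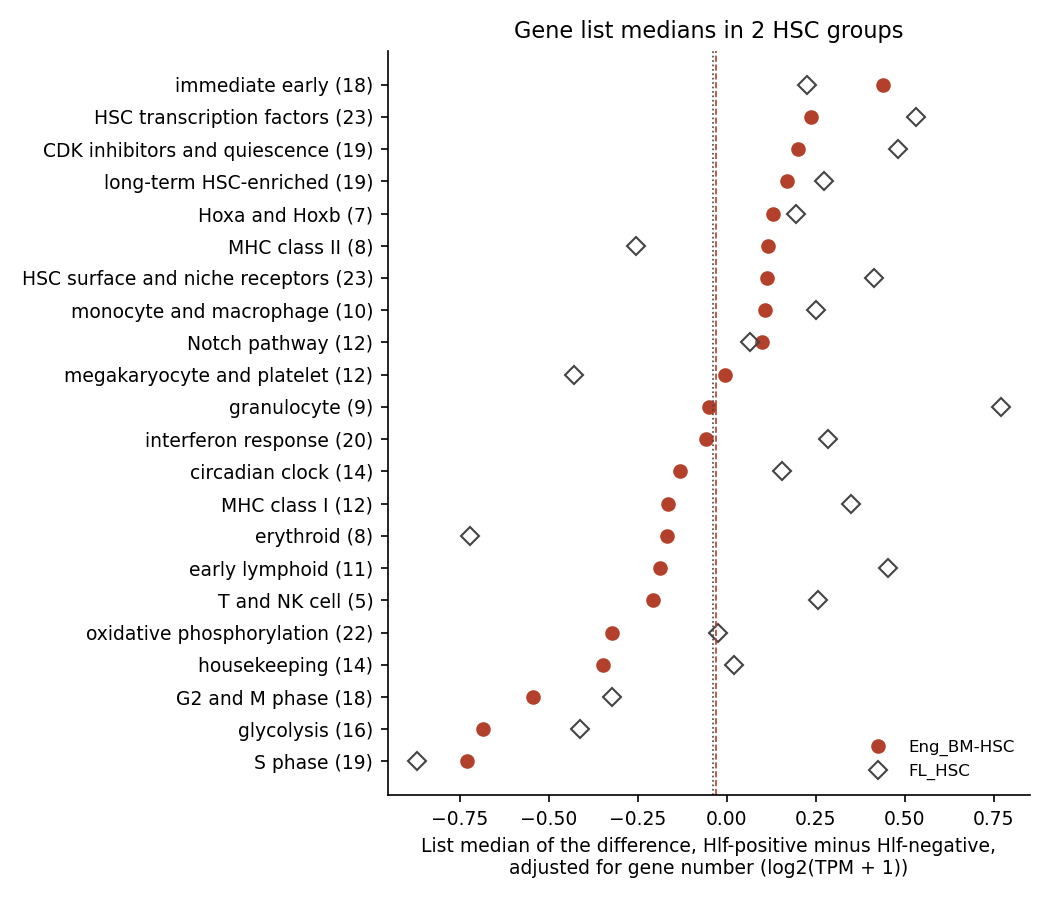
Median difference of each gene list with at least 5 compared members, Hlf-positive minus Hlf-negative on the log2(TPM + 1) scale, in Eng_BM-HSC (red circles) and in FL_HSC (open diamonds), with the number of marrow genes compared in brackets. Lines mark the medians over all genes, -0.03 and -0.04, and S phase genes are lowest in both, at -0.73 and -0.87.

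The named genes, of which Dut and Btg1 also stand on lists, had the largest differences in each direction among well detected genes that also differed by at least 1 in the matched pairs. They were chosen by these values, which are therefore given as a description. Among the 12 genes higher in Hlf-positive cells, Nufip2 and Nek7 had the widest gaps in the share of cells that carried them. Sox4, a transcription factor of blood progenitors at chr13:28948919-28953713 in GRCm38, had a lowest, median and highest value of 0, 25.9 and 855 TPM in Hlf-positive cells and of 0, 1.73 and 358 TPM in Hlf-negative cells. The groups overlapped, and the difference was 1.99, with detection in 82.4% (69.1% to 91.6%) of Hlf-positive and 56% (34.9% to 75.6%) of Hlf-negative cells. Nufip2, an RNA-binding partner of the fragile X protein, was detected in 52.9% (38.5% to 67.1%) of Hlf-positive and 12% (2.55% to 31.2%) of Hlf-negative cells, with a difference of 2.0. Its highest value was 604 TPM in Hlf-positive and 200.2 TPM in Hlf-negative cells.

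Rgs18, a regulator of G protein signalling in blood cells, had the largest difference, 2.27, and was found in most cells of either group. Its median was 99.2 TPM in Hlf-positive and 17.8 TPM in Hlf-negative cells, and its highest value was 3515 TPM in Hlf-positive and 3904 TPM in Hlf-negative cells. Zyx, which encodes the focal adhesion protein zyxin, differed by 2.25, with medians of 33 TPM in Hlf-positive and 1.23 TPM in Hlf-negative cells. Rab38, a GTPase of lysosome-related organelles, differed by 2.16 and was detected in 58.8% of Hlf-positive and 36% of Hlf-negative cells. Nek7, a kinase of mitosis and of the inflammasome, was detected in 72.5% (58.3% to 84.1%) of Hlf-positive and 36% (18% to 57.5%) of Hlf-negative cells. Map1lc3b, the autophagosome protein LC3B, differed by 1.76, and the kinase gene Rock1 by 1.70. Ftl1 and Calm2, which encode ferritin light chain and calmodulin and have close copies elsewhere in the genome, each differed by 1.75. Calm2 turned to -0.38 in cells with 2500 or more genes, and Ftl1 was at 0.20 when any Hlf value above 0 counted as positive and at 0.94 in cells with fewer than 2500 genes. In cells with 2500 or more genes Rock1 was at 0.79, and in cells with fewer Rab38 was at 0.60. Zscan2, a zinc finger gene, differed by 1.68. For all of these genes the groups overlapped, with cells at or near 0 in both.

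**Figure D4:**
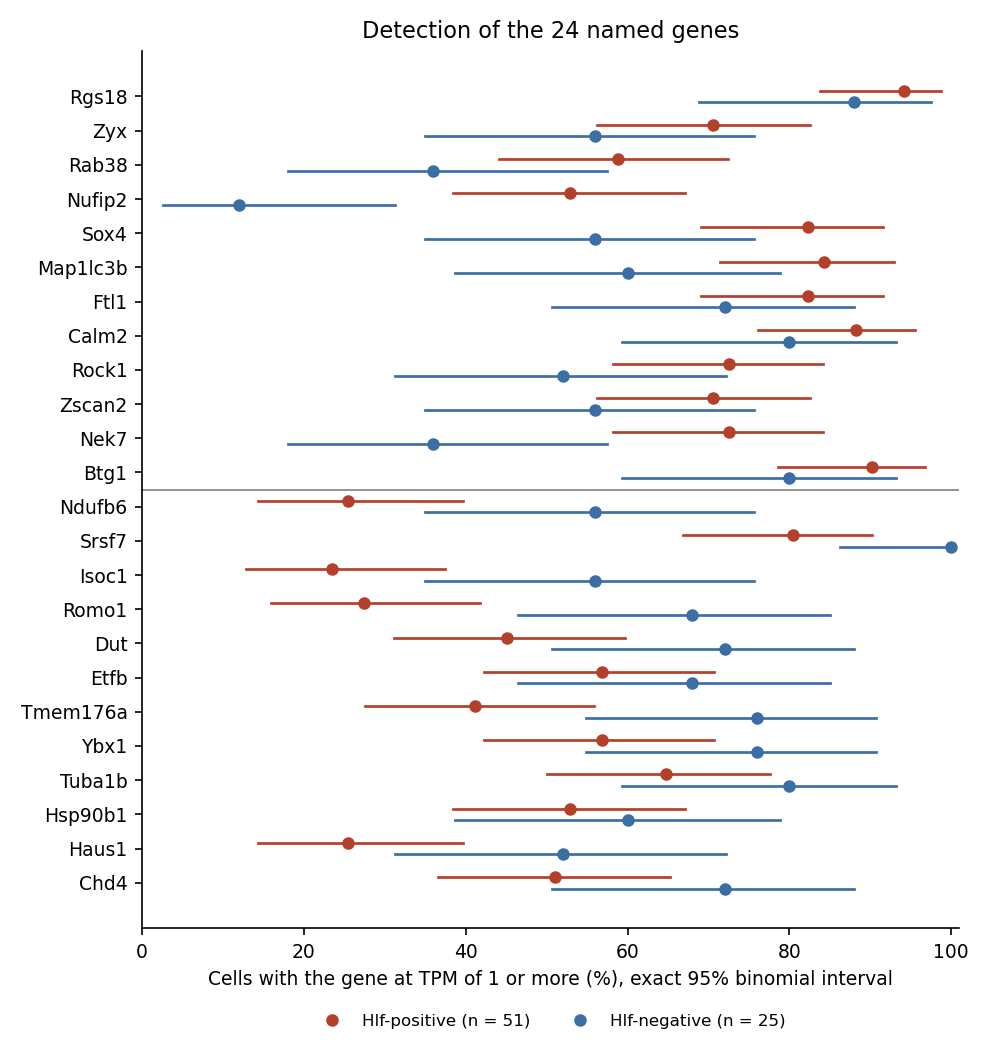
Share of cells with each named gene at a TPM of 1 or more, in Hlf-positive (n = 51, red, upper) and Hlf-negative (n = 25, blue, lower) marrow cells, with exact 95% binomial intervals. The 12 genes above the line are those higher and the 12 below it those lower in Hlf-positive cells, and Srsf7 is found in 100% of Hlf-negative cells.

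Among the genes lower in Hlf-positive cells, several act in mitochondria. Ndufb6, a subunit of complex I, had the largest difference, -3.26. It had a lowest, median and highest value of 0, 0 and 781 TPM in Hlf-positive cells and of 0, 89.8 and 2381 TPM in Hlf-negative cells, and was detected in 25.5% (14.3% to 39.6%) of Hlf-positive and 56% (34.9% to 75.6%) of Hlf-negative cells. Romo1, a protein of the mitochondrial membrane, differed by -2.62 and was detected in 27.5% (15.9% to 41.7%) of Hlf-positive and 68% (46.5% to 85.1%) of Hlf-negative cells. Etfb, which passes electrons from fatty acid oxidation to the respiratory chain, differed by -2.38, with medians of 4.19 TPM in Hlf-positive and 228 TPM in Hlf-negative cells.

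Srsf7, Ybx1 and Chd4 act on RNA or chromatin. Srsf7, a splicing factor, ran from 0 to 1309 TPM with a median of 33.4 TPM in Hlf-positive cells, and from 13.1 to 2232 TPM with a median of 334 TPM in Hlf-negative cells. It was detected in 41 of 51 Hlf-positive and in all 25 Hlf-negative cells and differed by -2.96. Ybx1, an RNA-binding cold shock protein, differed by -2.36, and Chd4, the ATPase of the NuRD complex, by -2.23. Tuba1b, an alpha tubulin with close copies in the genome, and Haus1, a subunit of the augmin complex that nucleates spindle microtubules, differed by -2.24 and -2.23. In cells with 2500 or more genes Tuba1b differed by -0.76 and Haus1 by -0.25, and Haus1 differed by -0.36 when any Hlf value above 0 counted as positive. Hsp90b1, a chaperone of the endoplasmic reticulum, differed by -2.23, Tmem176a, a membrane protein, by -2.36, and Isoc1 by -2.77. Dut, described with the S phase genes at chr2:125247190-125258608, also belongs to this group.

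By the presence or absence of transcript, the genes most like Hlf in the matched pairs were Sat1, Nufip2, Nek7, Cers4 and Rab38. Likeness was measured as the share of the 25 matched Hlf-positive cells with the gene minus that of the 25 Hlf-negative cells, which was 48 points for Sat1, 44 for Nufip2 and 36 for each of the other genes. Sat1 acetylates spermidine and spermine, and Cers4 is a ceramide synthase. Over all cells Cers4 was detected in 62.7% (48.1% to 75.9%) of Hlf-positive and 24% (9.36% to 45.1%) of Hlf-negative cells, and Sat1 in 51% (36.6% to 65.2%) of Hlf-positive and 28% (12.1% to 49.4%) of Hlf-negative cells.

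Differences did not all scale with the amount of Hlf among the positive cells. The means below were not adjusted for gene number. The 26 Hlf-positive cells with 31.8 TPM or more had a mean S phase list level of 1.07, the other 25 Hlf-positive cells 0.95, and the Hlf-negative cells 1.80. For HSC transcription factors the mean was 2.65 in the upper and 2.5 in the lower Hlf-positive cells, against 2.20 in Hlf-negative cells. For the long-term HSC list it was 1.49 in the upper and 1.27 in the lower Hlf-positive cells, against 1.13 in Hlf-negative cells. Sox4 averaged 4.46 on the log2(TPM + 1) scale in the upper and 4.87 in the lower Hlf-positive cells, against 2.70 in Hlf-negative cells. Map1lc3b averaged 7.04 in the upper and 5.38 in the lower Hlf-positive cells, against 4.52 in Hlf-negative cells.

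Fetal liver HSC were divided in the same way, and their values did not enter the rule that picked the named genes. The division of the cells, the genes and the gene lists were chosen with earlier results of these data known. The fetal liver values are therefore not an independent check of the lists. The fetal liver cells share no cells with the marrow group. With 60 Hlf-positive and 27 Hlf-negative FL_HSC cells and the same fit, 344 of 10928 genes (3.15%) were higher by at least 1 and 587 (5.37%) lower. Gene number was less even there, with medians of 4243 in Hlf-positive and 3589 in Hlf-negative cells, and the adjustment for it mattered. Without it 1051 genes were higher and 112 lower.

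Of 209 genes that were higher by at least 1 in marrow and compared in both groups, 141 (67.5%) were above 0 in fetal liver, against 46.8% of all 9075 genes compared in both. Of 498 lower genes 299 (60%) were below 0, against 53.2% of all. Past 1 in the same direction were 31 (14.8%) of the higher and 54 (10.8%) of the lower genes. Sox4 differed by 1.47 and Zyx by 0.96 in fetal liver, while Rgs18 (0.16), Rab38 (0.20) and Nek7 (0.05) were near 0. Among the lower genes Dut differed by -1.03 and Ybx1 by -0.90, while Ndufb6 (-0.06), Srsf7 (0.26), Isoc1 (0.36) and Romo1 (0.33) were near or above 0. Without the adjustment for gene number Dut was at -0.001 and Ybx1 at 0.047 in fetal liver. Dut was detected in 86.7% of Hlf-positive and 70.4% of Hlf-negative FL_HSC cells. Of the genes most like Hlf, Cers4 and Sat1 differed by 1.49 and 1.23, and Cers4 was detected in 45% of Hlf-positive and 11.1% of Hlf-negative FL_HSC cells.

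Of the 12 list members past 1 in the same direction in both, 8 belonged to the S phase and long-term HSC lists. These were 4 of 19 S phase members and 4 of 17 long-term HSC members compared in both. Among all 9075 genes compared in both, 31 were higher and 54 lower by at least 1 in both. S phase genes had a fetal liver median of -0.87, with 19 of 20 below 0 and 8 lower by at least 1, and Mcm5 (-1.96), Uhrf1 (-1.29), Rrm2 (-1.24) and Dut (-1.03) were past 1 in both. Without the adjustment for gene number the fetal liver S phase median was -0.17 and Dut was at -0.001. All 4 long-term HSC genes past 1 in marrow were past 1 in fetal liver, Gstm1 at 2.08, Gimap6 at 2.01, Gimap1 at 2.01 and Ubl3 at 1.56. HSC transcription factors had a fetal liver median of 0.53, and Myb (1.12) was the only member past 1 in both. The other list members past 1 in both were Klf6 (1.07 in fetal liver), Ndufb8 (1.02) and Pgam1 (-1.56). Mecom, at 0.84 in marrow, differed by 1.72 in fetal liver. Glycolysis had a fetal liver median of -0.41, which turned to 0.21 without the adjustment, and Gapdh differed by -0.80 in marrow and 1.52 in fetal liver. Slamf1 was below 0 in both, at -0.97 in marrow and -1.02 in fetal liver. Procr was past 1 in fetal liver, at 1.36.

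**Figure D5:**
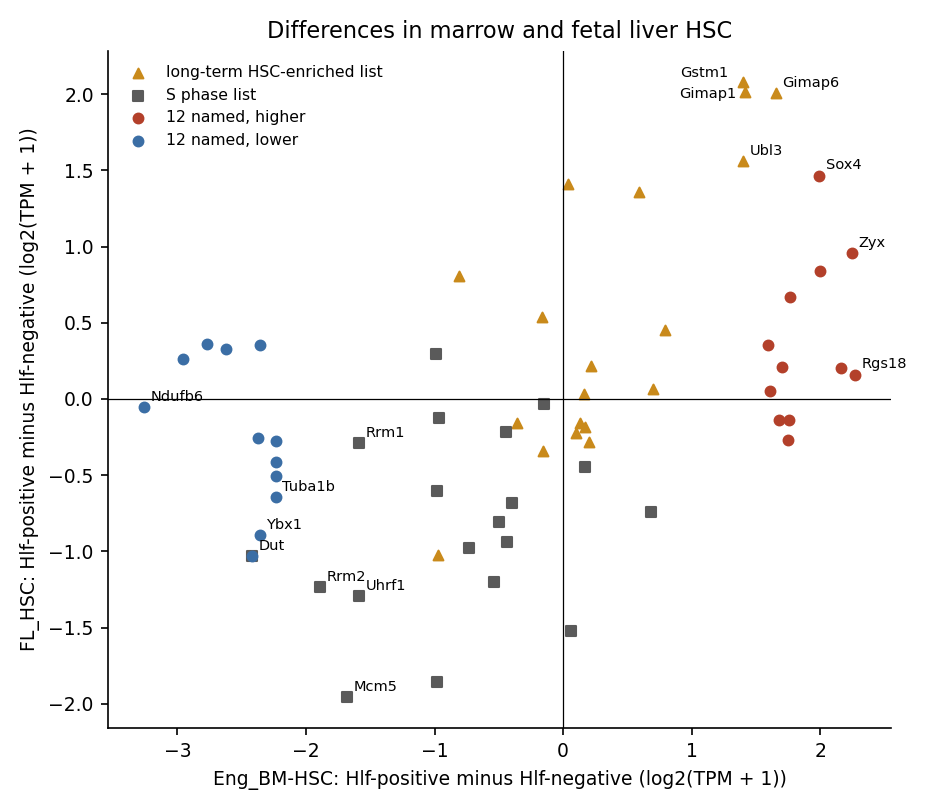
Difference between Hlf-positive and Hlf-negative cells on the log2(TPM + 1) scale in Eng_BM-HSC (horizontal) and FL_HSC (vertical) for the 24 named genes and for the compared S phase and long-term HSC-enriched genes. Gimap1, Gimap6, Gstm1, Ubl3 and Sox4 lie past 1 in both, Mcm5, Rrm2, Uhrf1 and Dut lie past -1 in both, and most other named genes lie near 0 on the vertical axis. All values are adjusted for gene number, and without that Dut was at -0.001 in FL_HSC.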

How the data were processed

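The data were 1 table of 22073 rows and 316 single cells, of which 21970 rows are mouse genes, 92 ERCC spike-ins and 11 cassette rows. The deposited values are natural log values; the base and the added 1 were read from the values, since exp(x) - 1 gave totals of 414503 to 962583 TPM per cell. HISAT 0.1.6, Salmon 0.3.2 and GRCm38 are named in the submitters' processing notes, with no roles; the library kit and the annotation are not stated there. TPM keeps no read depth, so no interval on reads could be given. An exact 0 is a value listed at 0.

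TPM values were recovered and put on a log2(TPM + 1) scale, which understates differences of low genes. Cells with at least 1000 genes were divided at an Hlf TPM of 1. Per gene with a mean TPM of 1 or more in either group, ordinary least squares gave the coefficient of the Hlf group beside log2 gene number (Python 3.11.15, numpy 2.4.6, pandas 2.3.3, scipy 1.17.1). Genes past 1 in size were counted, with no test. The fit was tested on simulated data. Matched cells were 25 pairs nearest in gene number, with a median gap of 28 genes and a largest gap of 536. Named genes were the 12 with the largest difference in each direction among genes that met the following minima. In the higher group they had an average of 10 TPM or more and detection in 50% of cells or more. They kept the same sign without adjustment and differed by at least 1 in matched pairs. Genes of small RNAs, of ribosomal proteins and of the mitochondrial genome were skipped, as were predicted genes. Nuclear genes of mitochondrial proteins were kept. List members could be named with any value. The division of the cells, the genes and the 25 lists were chosen with earlier results of these data known. Coordinates are from GENCODE M21, which held 21067 of the symbols. Doublets were not called. Xist, H19 and Ighm were not analysed here. The 15 alternatives for gene differences are in the closing section, with 1 more, only cells with Mki67 below TPM 1, chosen after seeing the data.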

Additional observations from a re-analysis of the deposited data

How the results depend on the processing

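Over 16 alternatives, the list medians of S phase (-0.98 to -0.45), HSC transcription factors (0.15 to 0.51), long-term HSC-enriched (0.08 to 0.38), immediate early (0.20 to 0.92) and glycolysis genes (-0.97 to -0.048) kept their direction, while the megakaryocyte, granulocyte and interferon medians, all near 0, kept their sign in 8 of 16. Of 416 values for named genes, 44 moved, by over 0.3 and over 1.5 times, and 1 reversed, Calm2 at -0.38 in cells with 2500 or more genes. Counts of genes moved by more than 1.5 times as follows, and the cause was not tested. Higher genes numbered 382 in matched cells, 521 in cells with under 2500 genes and 694 (with 1003 lower) in cells with 2500 or more. They numbered 442 in cells with 1500 or more genes and 92 in cells with 500 or more. With TPM rescaled without genes of the mitochondrial genome and of ribosomal proteins they numbered 387. With a pseudocount of 0.1 there were 719 higher and 1170 lower, with 10 there were 31 and 85, and quantile normalization gave 331 lower. The glycolysis median was -0.32 in matched cells and -0.048 in cells with under 2500 genes, where G2 and M phase (0.27), oxidative phosphorylation (0.78) and housekeeping genes (0.20) reversed. Housekeeping genes also reversed, to 0.043, with 1500 or more genes, and G2 and M phase was -0.87 at a pseudocount of 0.1. The Hlf share was 50% at a TPM of 10 or more. In FL_HSC without adjustment 1051 genes were higher and 112 lower, S phase was -0.17, and glycolysis (0.21) and G2 and M phase (0.26) reversed. With Hlf at 10 TPM or more there, 715 genes were higher and G2 and M phase was 0.035. No paired analysis was possible because replicate numbers in the labels only number the cells of a group, and both Hlf groups are cells of 1 group. Depth is unknown, so a gene at 0 in a cell may have been missed.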
